A study of Rattus norvegicus with 26 samples.

Results

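The nerve terminal releases transmitter through a set of proteins that fill, dock, fuse and retrieve synaptic vesicles, and 34 genes of this vesicle cycle were followed here in the hippocampus of ageing rats that ate low, control or high amounts of vitamin D3. A gene was included by name, not by its values, where a probe set of the array carried its symbol alone, and the probe set of highest mean stood for the gene. All 34 genes had such a probe set, of 14506 genes with one on the array, and all 34 were among the 8485 genes tested. By role they comprised 10 vesicle genes, 10 fusion genes, 6 active zone genes and 8 endocytosis genes.

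The animals were male rats of the strain labelled Fisher 344, aged 18 months, that received a purified diet of the AIN-93G type for 5 to 6 months. Cholecalciferol, which is vitamin D3, was set at 100 IU per kg of diet in the low group (8 rats), at 1000 in the control group (9 rats) and at 10000 in the high group (9 rats). One hippocampal RNA extract of each rat was hybridised to its own Affymetrix Rat Gene 1.0 ST array, which gives 1 value per probe set on the log2 scale. Rats were housed in pairs, the 26 arrays came from 14 cages, and 12 of these cages contributed both rats. Because the extract was from a whole tissue block, fewer cells of a type and less RNA per cell cannot be told apart. The comparison asks whether the amount of dietary vitamin D3 goes with the RNA level of genes of the synapse, whose function the study's title names.

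Synaptic vesicles are filled with transmitter by transporters that use the gradient of a proton pump, and synapsins tether them in a reserve near the release site. At the active zone, large scaffold proteins hold vesicles beside calcium channels and prime them, after which SNARE proteins of the vesicle and the plasma membrane zip together and a calcium sensor triggers fusion. Clathrin adaptors, membrane-bending proteins and dynamin then retrieve the membrane, and hippocampal neurons depend on this cycle for every round of excitatory and inhibitory transmission.

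The labelled tissue was checked against marker genes. Of 11 hippocampal field markers with a probe set, 10 were above the intensity limit of the test (6.94, the median of all probe set means) and Iyd, with a mean of 5.69, was under it. Those above it included Wfs1 of field CA1 with a mean of 12.04 and Prox1 of the dentate gyrus with a mean of 10.67, and all 16 neuron markers were above it, such as Rbfox3 with a mean of 12.76. All 5 cortex markers with a probe set were above it too. Of the choroid plexus markers, 4 of the 5 with a probe set lay under the limit. Array medians ran from 6.92 to 6.96, and precision was limited by how many rats were measured. Control rat 17 and high rat 19 stood apart from the other 24 rats: 315 and 222 genes respectively lay more than 0.3 log2 units from the median of their diet, against 10 to 171 genes (median 32.5) in the others. In the same rats the mean of 10 field markers was -0.23 and -0.254 log2 units from its overall mean, against -0.0546 to 0.102 in the others. In control rat 17, 8 of the 10 markers, and in high rat 19, 9 of the 10, were below every other rat of the same diet. Wfs1, for example, was 10.99 in high rat 19 and 11.89 to 12.19 in the other high rats. Gene differences and correlations that rest on these rats are given with and without them, and group means that rest on them are given with the median.

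No member differed between diets at an adjusted p under 0.17, the threshold taken from the study's design, in limma's moderated test with Benjamini-Hochberg adjustment over all 8485 genes. The share of all genes past that threshold was 0% in high minus low, in high minus control, in low minus control and in the F-test over the 3 diets. The smallest adjusted p of a member was 0.68 in high minus low, 0.9997 in high minus control and in low minus control, and 0.998 in the F-test. At an unadjusted p under 0.05, high minus low held 2 members (Sv2a and Synj1, both higher), which is 5.88% of the members against 7.22% of all genes. High minus control held 1 member (Ap2a1, higher), 2.94% against 4.63% of all genes (2.18% higher and 2.45% lower), and low minus control held 1 member (Doc2a, lower), 2.94% against 2.27% (0.66% higher and 1.61% lower). The F-test held 0 members against 4.62% of all genes. In these fits the members' shares were near those of all genes, or below them. In high minus low they were above in some other fits: 14.7% of members against 6.91% of all genes with only the 2 diets fitted, 14.7% against 7.17% without moderation, 14.7% against 10.4% with values over 2 SD removed, 17.6% against 9.51% with array weights and 11.8% against 8.08% with arrays centred on their medians. In others they were below: 2.94% against 7.59% with quantile normalization and 2.94% against 5.27% with the cage as a random block.

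The differences were small and were measured closely. The median difference of the members was 0.0208 in high minus low, 0.0121 in high minus control and -0.00472 in low minus control, beside 0.00531, 0.000427 and -0.00435 over all genes. The median within-diet standard deviation of a member was 0.0551 log2 units, against 0.0757 over all genes, and ran from 0.0241 for Nsf to 0.166 for Doc2a. In high minus low the 95% interval of the difference stayed within a 1.1-fold change for 31 of 34 members, as it did for 75.8% of all genes. In high minus control and in low minus control it stayed within that change for 33 and 32 members (80.7% and 81.6% of all genes). The widest interval, that of Doc2a, reached a 1.22-fold change in high minus low and 1.24-fold in low minus control.

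**Figure D1:**
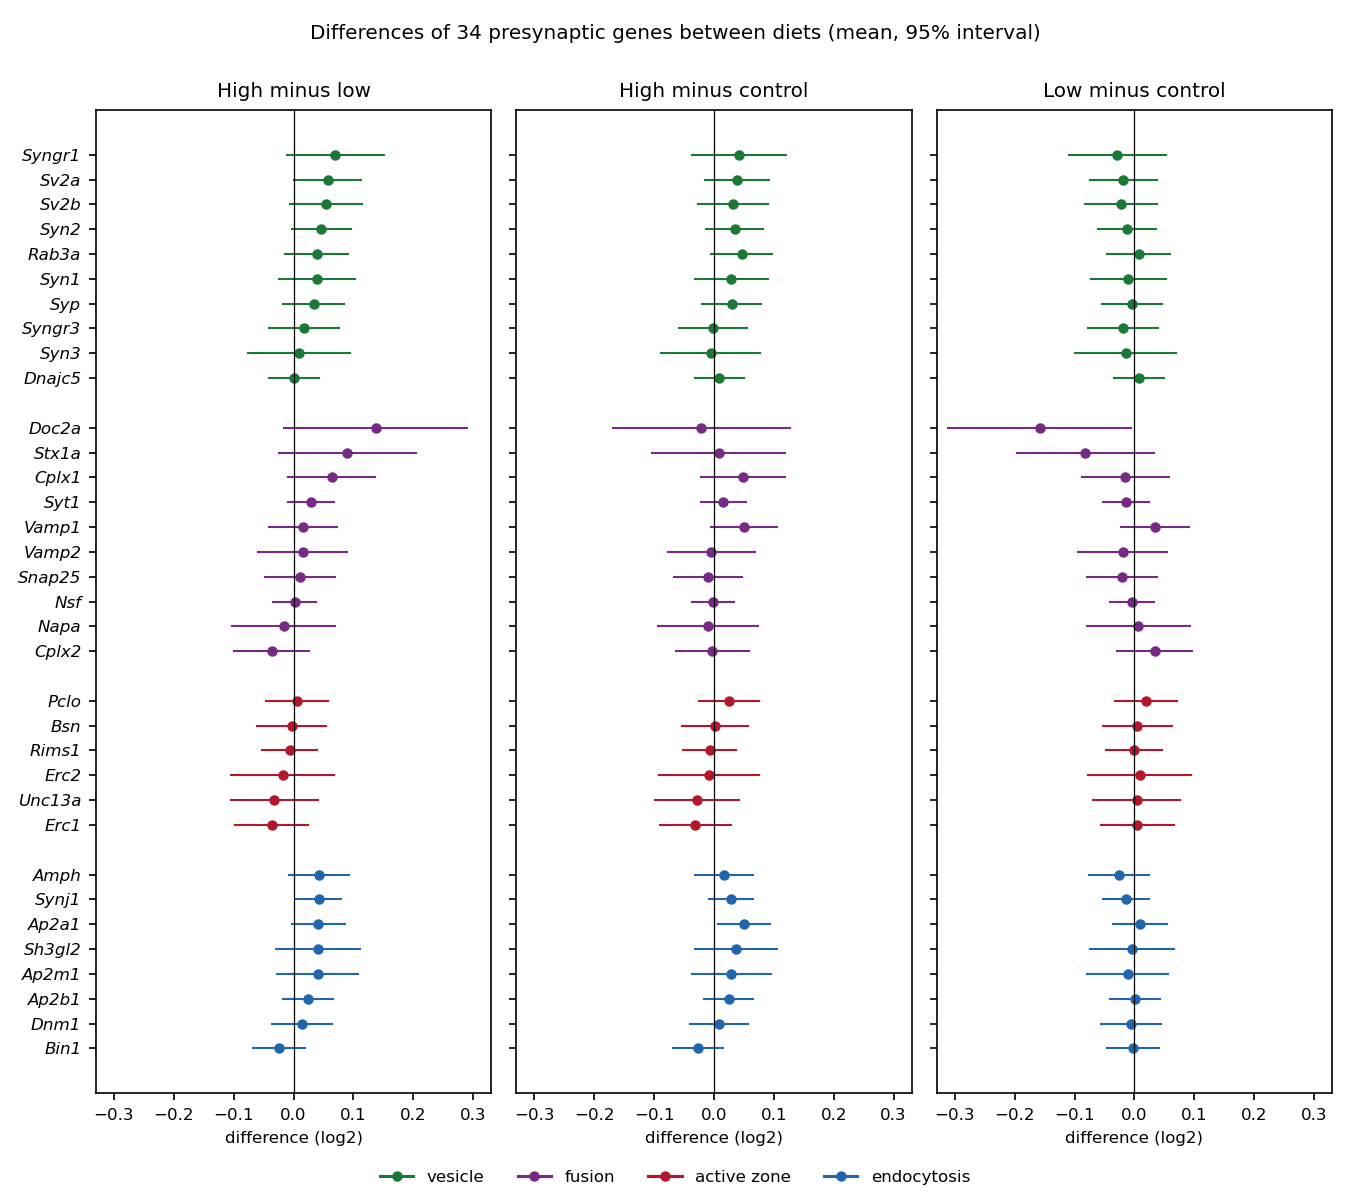
Difference of each member between diets on the log2 scale (points) with its 95% interval (lines), coloured by role and ordered within a role by the high minus low difference, in 8 low, 9 control and 9 high rats. In high minus low all 10 vesicle genes lie above 0 and 5 of 6 active zone genes below it, and in that comparison the intervals of Sv2a and Synj1 lie above 0 while the others include it.

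The direction of the small differences was not the same in each role group. In high minus low, the mean was higher on the high diet for all 10 vesicle genes (median 0.039), 8 of 10 fusion genes (median 0.0156), 1 of 6 active zone genes (median -0.0122) and 7 of 8 endocytosis genes (median 0.0404). That made 26 of 34 members, or 76.5%, where 55.2% of all genes had the higher mean on the high diet. Against the control diet, the high diet had the higher mean in 8 vesicle, 4 fusion, 2 active zone and 7 endocytosis genes, 21 of 34 members in all (61.8%, against 50.6% of all genes). On the low diet against control the higher mean was found in 2 vesicle, 3 fusion, 5 active zone and 2 endocytosis genes, 12 of 34 members (35.3%, against 44.1%). With each rat left out in turn, the median difference of the vesicle genes, high minus low, ranged from 0.0225 (without high rat 26) to 0.0491, and the median difference of the active zone genes, high minus low, from -0.0256 to 0.00081 (without low rat 6), which changed its sign. These counts carry no test, since members vary together in a rat. They also moved with the scaling: with each array centred on its median, the counts were 28, 30 and 18 of 34, beside 61.5%, 65.1% and 52.0% of all genes. High minus control shares its high rats with high minus low, and low minus control shares its low and control rats with the others.

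The vesicle genes encode proteins of the vesicle membrane or bound to it. The synapsins, which tether vesicles in the reserve pool, had high minus low differences of 0.039 for Syn1, 0.0464 for Syn2 and 0.00887 for Syn3. The membrane proteins of the synaptophysin and synaptogyrin family were higher by 0.0339 (Syp), 0.07 (Syngr1) and 0.0171 (Syngr3), none past the threshold. The glycoproteins of the SV2 family had differences of 0.0573 (Sv2a) and 0.0537 (Sv2b). Rab3a, the small GTPase that guides vesicles to the release site, had a difference of 0.0391, and Dnajc5, the chaperone known as cysteine string protein, one of 0.000674.

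Sv2a, the binding site of the antiepileptic drug levetiracetam, ranged from 11.531 to 11.662 (median 11.544) in the low rats. In the control rats it ranged from 11.521 to 11.687 (median 11.57), and in the high rats from 11.543 to 11.706 (median 11.625). The groups overlapped: 8 of 9 high rats lay above the mean of the low rats, and 2 above every low rat. The high minus low difference was 0.0573 (SE 0.0272, limma unadjusted p = 0.0445, adjusted p = 0.68), a 4.05% higher level. Low rat 8, at 11.66, lay apart from the next low rat at 11.59, and without it the difference was 0.0713 (limma unadjusted p = 0.013). Without high rat 21 it was 0.0467 (limma unadjusted p = 0.0971). Other fits with a limma unadjusted p above 0.05 included those without low rat 2 (0.0526), low rat 7 (0.0716), high rat 19 (0.0634) or both rats 17 and 19 (0.057). They also included those without low rat 4, high rat 24 or high rat 26, in which 0 members were under 0.05. Syn2 ranged from 11.974 to 12.121 (median 12.032) in low rats, from 12.008 to 12.121 (median 12.059) in control rats and from 12.032 to 12.126 (median 12.104) in high rats. In Syn2 likewise 8 of 9 high rats exceeded the mean of the low rats while only 3 exceeded every low rat, and the difference was 0.0464 (SE 0.0238, limma unadjusted p = 0.0613, adjusted p = 0.692).

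**Figure D2:**
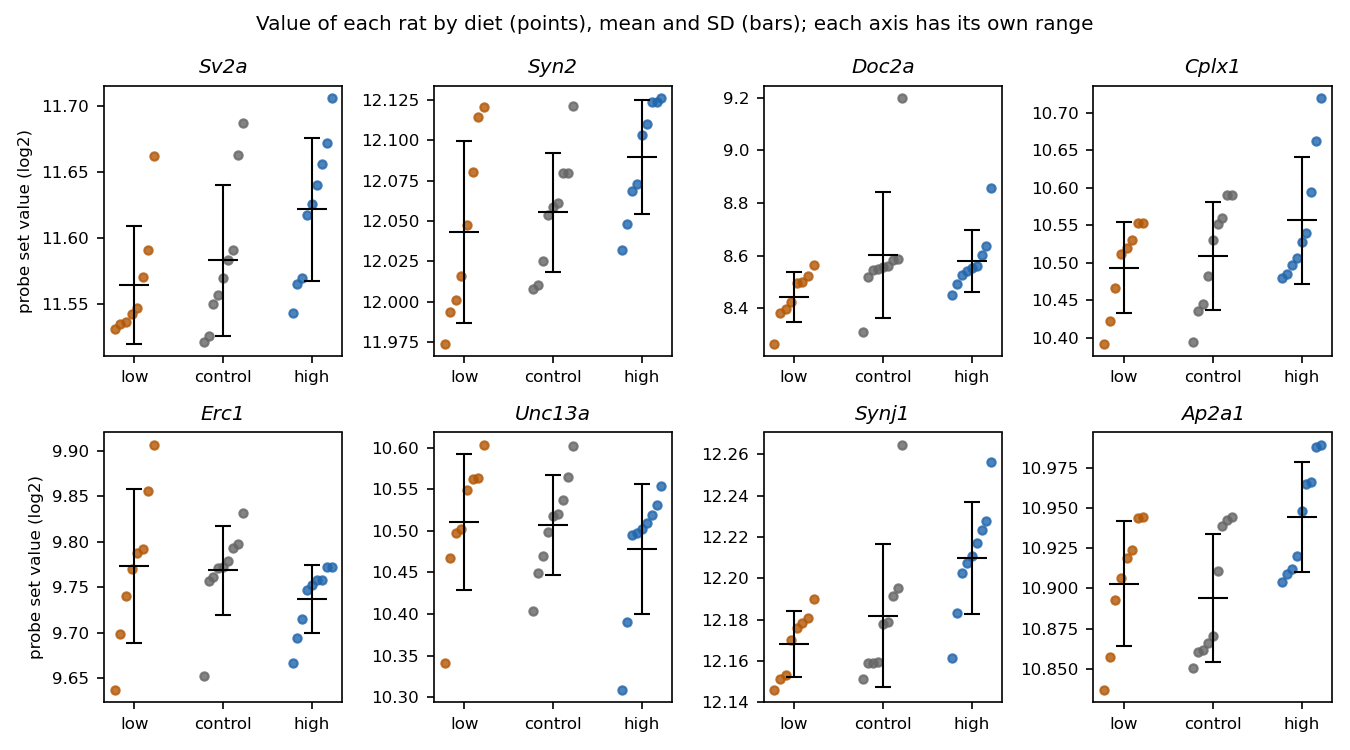
Log2 probe set value of each rat (points) by diet for 8 members, with the mean and SD of the diet (bars), in 8 low, 9 control and 9 high rats; each panel has its own axis range. The diets overlap in every panel, and in Doc2a control rat 17 (9.198) and high rat 19 (8.858) lie above the rest of their diets.

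The fusion genes encode the SNARE proteins and the factors that clamp, trigger and reset them. The plasma membrane SNAREs had high minus low differences of 0.0107 (Snap25) and 0.0896 (Stx1a), and the vesicle SNAREs of 0.0159 (Vamp1) and 0.0153 (Vamp2). The complexins, which hold the assembled SNAREs ready, went in opposite directions, with 0.0635 for Cplx1 and -0.0366 for Cplx2. Nsf, the ATPase that takes SNARE complexes apart, had a difference of 0.00183, and its adaptor Napa one of -0.0163. The calcium sensor Syt1 had a difference of 0.0291, and Doc2a, a calcium sensor linked to asynchronous release, one of 0.137.

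Doc2a ranged from 8.265 to 8.562 (median 8.458) in the low rats. In the control rats it ranged from 8.311 to 9.198 (median 8.557), and in the high rats from 8.449 to 8.858 (median 8.554). All 8 low rats lay below the control mean and all 9 high rats above the low mean, although the ranges overlapped. Low minus control was -0.158 (SE 0.0745, limma unadjusted p = 0.0432, adjusted p = 0.9997). High minus low was 0.137 (SE 0.0745, limma unadjusted p = 0.0769, adjusted p = 0.722). Both highest values came from the rats that stood apart: without control rat 17, low minus control was -0.0833 (limma unadjusted p = 0.0978), and high minus control went from -0.021 to 0.0536. Without both rats, a choice made after seeing the data, low minus control was again -0.0833 but with a limma unadjusted p of 0.0478, and high minus low was 0.102 (SE 0.0401, limma unadjusted p = 0.0171, adjusted p = 0.701).

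Stx1a shared the control part of this pattern: control rat 17 had 10.348 where the next control rat had 9.942. High minus control went from 0.0079 to 0.0626 without that rat. Among high rats, however, high rat 25 was highest (10.017), and high rat 19 had 10.009. High minus low was 0.0896 (limma unadjusted p = 0.121), with a p of 0.0217 without control rat 17. Without both rats it was 0.0782 (limma unadjusted p = 0.0457, adjusted p = 0.701). Across all 26 rats, with the diet means removed, the correlation of Doc2a with the mean of the field markers was -0.669, and that of Stx1a was -0.537. Without the 2 rats these correlations were 0.148 and 0.12. The vesicle gene Syn3, highest in control rat 17 as well (9.34), had a correlation of -0.191 with them and 0.466 without them. The part that the composition of these tissue blocks played in the values of Doc2a and Stx1a was not tested.

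**Figure D3:**
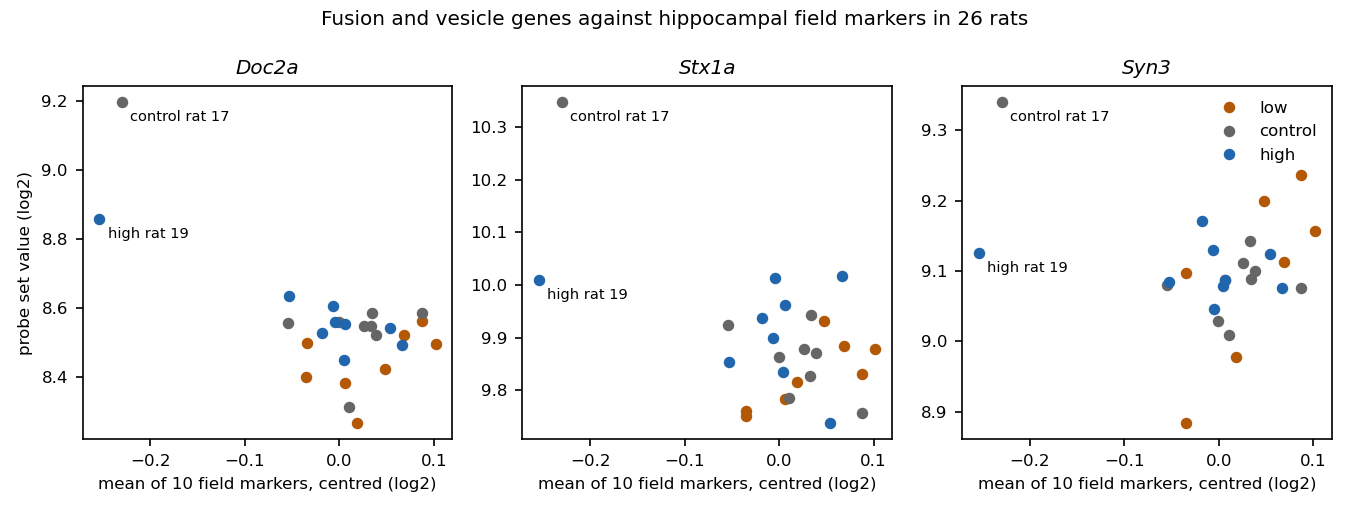
Log2 probe set value of Doc2a, Stx1a and Syn3 (vertical axes) against the mean of 10 hippocampal field markers, each centred on its mean over 26 rats (horizontal axes, log2), 1 point per rat coloured by diet. Control rat 17 and high rat 19 lie far to the left at -0.23 and -0.254, and the remaining 24 rats lie between -0.0546 and 0.102.

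Cplx1 ranged from 10.392 to 10.553 (median 10.516) in low rats, from 10.395 to 10.59 (median 10.53) in control rats and from 10.48 to 10.719 (median 10.527) in high rats. The medians were close together, while 3 of 9 high rats lay above every low rat. The difference was 0.0635 (SE 0.0354, limma unadjusted p = 0.0836, adjusted p = 0.734). Without high rat 26, which held the highest value, it was 0.0432.

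The active zone genes encode the scaffold of the release site. The giant scaffolds Bsn (bassoon) and Pclo (piccolo) had high minus low differences of -0.00321 and 0.00611, and Rims1, which links vesicles to calcium channels, one of -0.00664. The priming factor Unc13a was lower by 0.0323 on the high diet, and the scaffold proteins of the ELKS family by 0.0362 (Erc1) and 0.0177 (Erc2); none of these passed the threshold. Erc1 ranged from 9.637 to 9.907 (median 9.779) in low rats, from 9.653 to 9.831 (median 9.773) in control rats and from 9.667 to 9.773 (median 9.752) in high rats. All 9 high rats lay below the mean of the low rats, but none lay below the lowest low rat, and the difference was -0.0362 (SE 0.0297, limma unadjusted p = 0.234, adjusted p = 0.826). Without low rat 6 that difference was -0.0172. Unc13a ranged from 10.341 to 10.603 (median 10.526) in low rats, from 10.403 to 10.602 (median 10.518) in control rats and from 10.308 to 10.553 (median 10.503) in high rats. Its difference of -0.0323 (SE 0.0354, limma unadjusted p = 0.37, adjusted p = 0.882) was -0.0111 without high rat 19, whose value was the lowest of the high group.

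The endocytosis genes encode the machinery that retrieves vesicle membrane. The subunits of the clathrin adaptor AP-2 had high minus low differences of 0.0415 (Ap2a1), 0.0244 (Ap2b1) and 0.0403 (Ap2m1). The membrane-bending proteins had differences of 0.0426 (Amph), -0.0244 (Bin1, the relative of Amph that muscle and glia also express) and 0.0404 (Sh3gl2, endophilin A1). Dnm1, the neuronal dynamin that cuts the vesicle neck, had a difference of 0.0137, and Synj1, the lipid phosphatase that strips the clathrin coat, one of 0.0418.

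Synj1 ranged from 12.146 to 12.19 (median 12.173) in the low rats, whose spread was small. It ranged from 12.151 to 12.265 (median 12.178) in the control rats and from 12.161 to 12.256 (median 12.211) in the high rats. Of the 9 high rats, 7 lay above every low rat, but none lay above every control rat. The high minus low difference was 0.0418 (SE 0.0187, limma unadjusted p = 0.0333, adjusted p = 0.68), a 2.94% higher level. Its limma unadjusted p was 0.0805 with quantile normalization, 0.0577 without low rat 2 and 0.0508 without both rats 17 and 19, and the differences in these fits were 0.0347, 0.0386 and 0.0401. Over all rats left out in turn its p ran up to 0.0688. Ap2a1 ranged from 10.837 to 10.944 (median 10.913) in low rats, from 10.851 to 10.944 (median 10.87) in control rats and from 10.904 to 10.989 (median 10.948) in high rats. All 9 high rats exceeded both other means, and 5 exceeded every low rat and every control rat. High minus control was 0.0506 (SE 0.0212, limma unadjusted p = 0.024, adjusted p = 0.9997), and high minus low was 0.0415 (SE 0.0218, limma unadjusted p = 0.0677, adjusted p = 0.7).

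For no member were the rats of any pair of diets fully separate, beside 0.0118% of all genes in high minus low and 0% in the other comparisons. Among members with more than 1 probe set, the probe sets of Stx1a held identical values in 26 of 26 arrays. The other probe set of Ap2b1 had a mean of 7.48 and a high minus low difference of -0.0571 (SE 0.0506), opposite in sign to the 0.0244 of the one kept, and the correlation between them within diets was 0.29. For the other members no more than 1 probe set carried the symbol alone.

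Averaging the genes of a group in each rat, each gene first centred on its mean over all 26 rats, shows the spread behind these medians; the differences between diets are those of the same genes and add no support. The mean of the vesicle genes was -0.0166 ± 0.0385 (SD, n = 8) in low, -0.00524 ± 0.0325 (SD, n = 9) in control and 0.02 ± 0.0321 (SD, n = 9) in high rats. For the active zone genes it was 0.00755 ± 0.0461, 0.000726 ± 0.0259 and -0.00744 ± 0.0301. The lowest active zone values in control and high were those of control rat 17 (-0.0373) and high rat 19 (-0.0671). The active zone medians were -0.011, 0.0113 and 0.00818, so they did not fall from low to high as the means did. The vesicle and active zone groups were picked because their differences ran in opposite directions. The vesicle mean minus the active zone mean of a rat, which a constant added to all values of an array does not change, was above 0 in 1 of 8 low rats, 4 of 9 control rats and 7 of 9 high rats. Its mean was -0.0242 ± 0.0285, -0.00597 ± 0.0385 and 0.0274 ± 0.0375 in that order, and its median was -0.0262, -0.0162 and 0.0245. Control rat 17 and high rat 19 are included in these values and held the highest of their diets (0.072 and 0.0913). Fusion genes had means of -0.019, 0.00487 and 0.012, and endocytosis genes of -0.0118, -0.0053 and 0.0158. Control rat 17 had a fusion mean of 0.1003, the next control rat 0.0278. The fusion medians were -0.0298, -0.00427 and 0.021, so the control value was above 0 as a mean and below 0 as a median. Rats of the diets overlapped in each of these means, and because the members and their roles were chosen with results of these data known the means are given with no p.

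**Figure D4:**
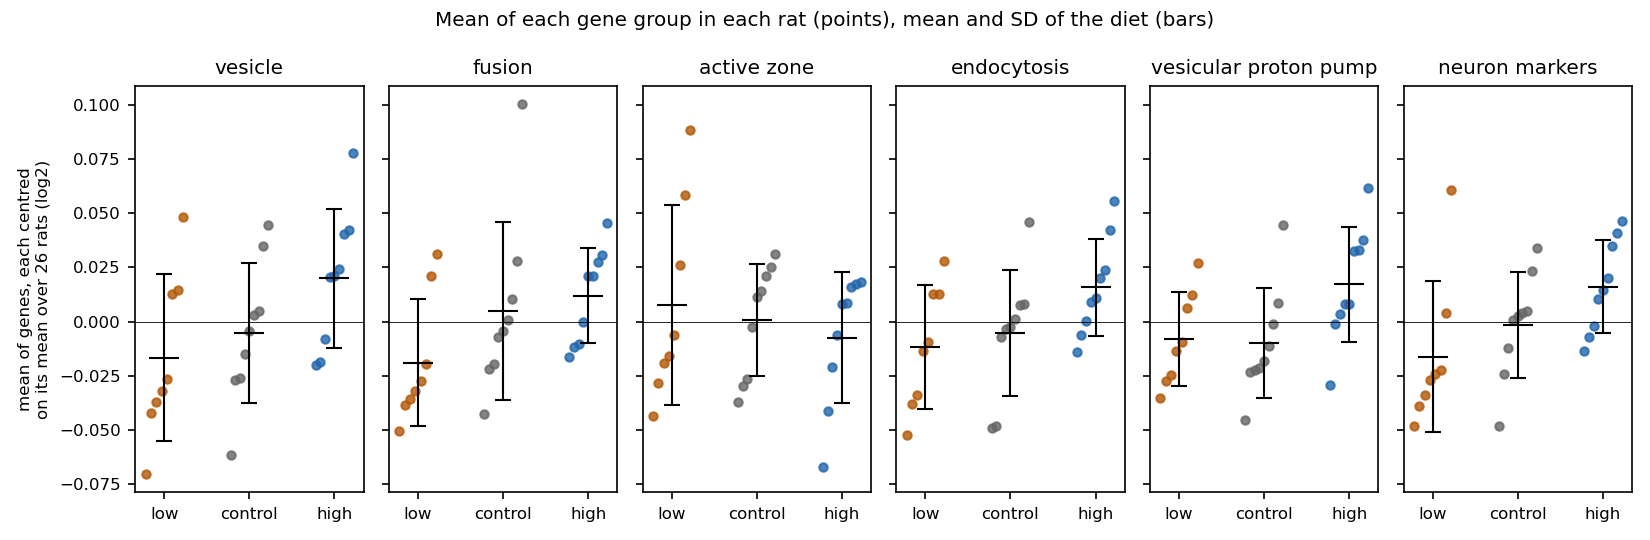
Mean of each gene group in each rat (points; each gene centred on its mean over 26 rats, log2) by diet, with the mean and SD of the diet (bars), for the 4 role groups, the vesicular proton pump and the neuron markers. The mean of the vesicle genes is -0.0166 in low and 0.02 in high rats and that of the active zone genes goes from 0.00755 to -0.00744, with overlapping rats in every panel. High rat 19, at -0.0671, is the lowest point of the active zone panel.

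Other genes of the same machinery were read from 5 lists holding 110 genes. No gene of these lists passed the adjusted threshold in any comparison. Of the vesicular proton pump, which acidifies vesicles so that transmitter can be loaded, 14 of 15 subunits had the higher mean on the high diet against low (median 0.0285) and 14 of 15 against control (median 0.0305), with 1 subunit at an unadjusted p under 0.05. Its subunits of smallest p were Atp6v1e1 (0.0577, SE 0.0252) and Atp6v1b2 (0.0448, SE 0.0225). Of 17 tested other vesicle genes, 11 had the higher mean on the high diet (median 0.0108), and 4 were higher and 0 lower at an unadjusted p under 0.05. Tmem163, a zinc-binding protein of synaptic vesicles, had a difference of 0.206 (SE 0.0726), and Sv2c, the third SV2 glycoprotein, 0.135 (SE 0.0561). Of 21 tested other release genes, 15 had the higher mean on the high diet (median 0.0272), with 3 higher and 1 lower at that level. They were led by the synaptotagmin Syt13 (0.0954, SE 0.0342) and by Cadps (0.0543, SE 0.0207), which primes dense-core vesicles. Of 18 tested other active zone genes, 8 had the higher mean (median -0.00808), with 1 higher (Lin7a, a scaffold adaptor of synapses, 0.112, SE 0.0452) and 1 lower (Unc13c, the cerebellar relative of Unc13a, -0.145, SE 0.0609). Of 21 tested other endocytosis genes, 12 had the higher mean (median 0.00642), with 2 higher and 0 lower: Sh3gl3, a relative of Sh3gl2 (0.0864, SE 0.0308), and Ap2a2, the other alpha subunit of AP-2 (0.053, SE 0.0225). Beside these counts, 4.5% of all genes were higher and 2.72% lower in high minus low at an unadjusted p under 0.05. In high minus control 2.18% of all genes were higher at that level. The higher mean on the high diet was found in 55.2% of all genes against low and in 50.6% against control.

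Markers of cell types and regions are given beside these results; none passed the adjusted threshold. Of 16 neuron markers, 12 had the higher mean on the high diet against low (median 0.0286), and their mean per rat was -0.0162 in low, -0.00167 in control and 0.0161 in high rats. All 9 high rats lay above the low mean. Over 26 rats with diet means removed, the mean of all 34 members had a correlation of 0.766 with the neuron markers and of 0.744 with the mean of all tested genes, points that share the tissue, the array scale and 12 cages. The 5 tested cortex markers had a mean per rat of -0.0311 in low, -0.0313 in control and 0.0589 in high rats. Of the 9 high rats, 7 lay above every low rat. The cortex marker mean had a correlation of 0.0266 with the mean of all 34 members. Its correlations with single members ran from -0.313 (Bin1) to 0.457 (Sv2a), and that with Synj1 was 0.317. Of 10 tested blood vessel markers, 1 had the higher mean on the high diet against low (median -0.064). The blood vessel marker mean had a correlation of 0.11 with the mean of all 34 members. With single members it ran from -0.36 (Snap25) to 0.383 (Rims1), and with Sv2a it was -0.339. Against control 0 of 10 blood vessel markers had the higher mean, and 5 were lower at an unadjusted p under 0.05. Of all genes, 50.6% had the higher mean on the high diet against control, and 2.45% were lower at that level. In high minus low at that level, 4 cortex and 3 neuron markers were higher, and 4 blood vessel markers and 1 hippocampal field marker were lower. The other marker lists held 0. Of all genes, 4.5% were higher and 2.72% lower at that level in high minus low, and 55.2% had the higher mean on the high diet. Of 10 tested hippocampal field markers, 9 had the lower mean on the high diet against low (median -0.0396). On the low diet against control, where 44.1% of all genes had the higher mean, all 10 field markers did (median 0.026). Their mean per rat had a correlation of 0.661 with that of the active zone genes and -0.00457 with that of the vesicle genes over 26 rats with diet means removed, and of 0.615 and 0.337 without control rat 17 and high rat 19. The astrocyte, oligodendrocyte and microglia markers had the higher mean on the high diet in 4 of 8, 4 of 7 and 1 of 5 tested genes. The 1 tested choroid plexus marker, Ttr, had differences of -0.276 in high minus low and -0.52 in high minus control. Its correlation with the members was 0.0709. The part of these cell types and regions in the members' differences was not tested.

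From rat to rat, some members varied together and others in opposition. The median correlation over the 561 pairs of members was 0.182 across the 26 rats with diet means removed, and 75.9% of the pairs were above 0, beside a median of 0.0405 and 56.0% for all pairs of tested genes. Vesicle genes were the most uniform, with 97.8% of their 45 pairs above 0 (median 0.224), and the fusion genes were mixed, with 62.2% of 45 pairs above 0 (median 0.103). The highest correlation was that of Erc2 with Sh3gl2, 0.831, followed by Cplx2 with Unc13a and with Napa, both 0.77, Syn1 with Vamp2, 0.763, and Bsn with Dnm1, 0.752. The lowest was that of Cplx1 with Erc2, -0.707, and Vamp2 with Erc2 had -0.649. Vamp2 and Cplx1 varied together (0.718), and both varied against Erc2, Sh3gl2 and Napa, with correlations from -0.707 to -0.448. Syn1 and Rab3a varied together as well (0.708), as did Cplx2 and Sh3gl2 (0.668). Without control rat 17 and high rat 19 the correlation of Erc2 with Sh3gl2 was 0.824 and that of Cplx1 with Erc2 was -0.691, whereas that of Stx1a with Doc2a was 0.74 with them and 0.182 without them. The mean of the field markers varied with Cplx2 (0.743), Napa (0.733), Erc1 (0.692) and Unc13a (0.647), and against Cplx1 (-0.544); without the 2 rats these were 0.763, 0.721, 0.611, 0.53 and -0.428.

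**Figure D5:**
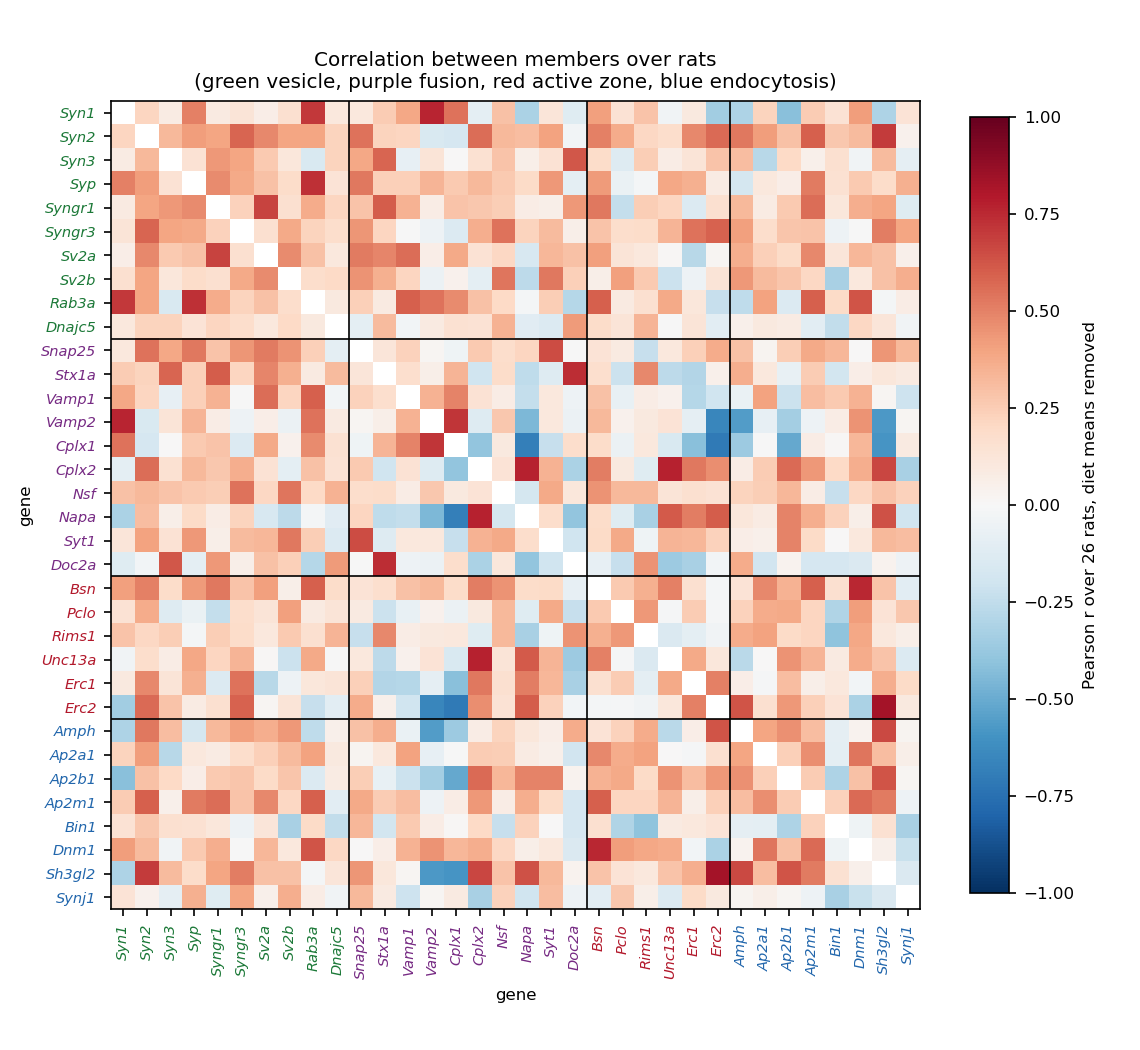
Pearson correlation between every pair of members over 26 rats with diet means removed (colour, from -1 in blue to 1 in red), ordered by role, with lines between roles. The vesicle block is almost all positive, while Vamp2 and Cplx1 are blue against Erc2 (-0.649 and -0.707) and Sh3gl2 (-0.574 and -0.593).

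The promoters of Syn1 and Vamp2 and of Erc2 and Sh3gl2 are shown because each pair varied closely together and Vamp2 varied against both Erc2 and Sh3gl2. Syn1 itself had correlations of only -0.348 and -0.313 with Erc2 and Sh3gl2. Each is the run of 250 bases before the annotated start in the direction of the gene, from RefSeq on the build GRCr8, where Syn1 is chrX:3725495-3725744, Vamp2 chr10:54292539-54292788, Erc2 chr16:2819262-2819511 and Sh3gl2 chr5:104699020-104699269, all on the plus strand. Capitals mark the cyclic AMP response element (TGACGTCA, the same on both strands) and the GC box that SP1 binds (GGGCGG, or CCGCCC on the other strand).
Syn1: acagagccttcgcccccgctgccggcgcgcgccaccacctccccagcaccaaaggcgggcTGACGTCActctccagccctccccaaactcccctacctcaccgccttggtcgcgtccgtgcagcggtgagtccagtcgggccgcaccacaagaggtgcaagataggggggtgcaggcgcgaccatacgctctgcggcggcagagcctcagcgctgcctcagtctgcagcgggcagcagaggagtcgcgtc
Vamp2: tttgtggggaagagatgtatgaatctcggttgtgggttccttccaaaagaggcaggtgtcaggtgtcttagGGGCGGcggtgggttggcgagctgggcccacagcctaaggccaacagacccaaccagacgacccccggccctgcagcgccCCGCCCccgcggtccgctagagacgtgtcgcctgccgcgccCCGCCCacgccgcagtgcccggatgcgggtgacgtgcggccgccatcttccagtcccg
Erc2: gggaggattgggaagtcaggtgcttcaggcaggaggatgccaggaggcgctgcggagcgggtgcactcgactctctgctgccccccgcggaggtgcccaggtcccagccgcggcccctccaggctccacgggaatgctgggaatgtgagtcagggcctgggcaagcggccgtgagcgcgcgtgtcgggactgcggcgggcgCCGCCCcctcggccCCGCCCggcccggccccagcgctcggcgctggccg
Sh3gl2: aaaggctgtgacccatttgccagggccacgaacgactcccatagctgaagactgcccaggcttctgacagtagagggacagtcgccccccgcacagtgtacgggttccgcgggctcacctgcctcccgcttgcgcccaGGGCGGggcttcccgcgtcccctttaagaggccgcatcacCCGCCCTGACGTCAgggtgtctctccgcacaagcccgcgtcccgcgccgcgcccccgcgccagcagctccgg

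The response element was present in Syn1 and Sh3gl2, and GC boxes were present in Vamp2, Erc2 and Sh3gl2. Of the 34 members, 29 had a promoter in the table (all but Snap25, Syngr3, Doc2a, Syngr1 and Syn3). The full response element was found in 5 of these 29, or 17.2%, against 1.89% of 21851 promoters and 2.91% of the 7520 that belong to tested genes. The GC box was found in 22 of 29, or 75.9%, against 38.9% and 60.1%. The left arm of the element bound by the neuronal repressor REST (TTCAGCACC, both strands) and the paired site known for the vitamin D receptor (DR3, both strands) were found in 0 of 29, and in 0.439% and 0.0532% of the promoters of tested genes. The shorter core of that left arm (CAGCACC, both strands) was found in 3 of 29, those of Syn1, Sv2b and Bsn (10.3%, against 6.62% of tested genes), and the right arm (GGACAG, both strands) in 3 of 29 (10.3%, against 18.3%). The members' promoters had a median GC content of 67.6% (47.6% to 75.6%), and those of tested genes 60.8%. A match is a description of the letters and not evidence of binding.

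The remaining promoters with the response element were those of Vamp1, Napa and Ap2b1, of which a window of 60 bases around the match is shown to set it beside that of Syn1 and Sh3gl2. They lie at chr4:159698797-159698856, chr1:85915350-85915409 and chr10:68600635-68600694 of the same build, on the plus strand, with capitals as above.
Vamp1: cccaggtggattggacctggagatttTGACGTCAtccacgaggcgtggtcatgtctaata
Napa: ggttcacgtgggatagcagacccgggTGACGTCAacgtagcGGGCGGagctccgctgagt
Ap2b1: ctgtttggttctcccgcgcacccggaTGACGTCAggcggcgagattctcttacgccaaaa

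The element began 71 bases before the start in Vamp1, 59 in Napa, 62 in Ap2b1 and 66 in Sh3gl2, close to one another, and 190 bases before it in Syn1. The high minus low differences of these 5 genes were 0.039 (Syn1), 0.0159 (Vamp1), -0.0163 (Napa), 0.0244 (Ap2b1) and 0.0404 (Sh3gl2), within the range of the other members.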

How the data were processed

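Hippocampal RNA of 26 rats was measured on 26 Affymetrix Rat Gene 1.0 ST arrays, 1 per rat. The deposited values are log2 probe set values, per the labels and the series' design; the submitters' processing notes name Partek 6.6 and GCRMA with no further detail, and no scanner files were used here. Values were taken as deposited. Genes were named through the platform annotation, which gave 15310 of 29214 probe sets a single symbol; 323 had several and 13581 none. The probe set of highest mean stood for each gene, and genes with a mean of at least 6.94 were tested.

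The diets were compared with limma 3.58.1 in R 4.3.3 (lmFit and eBayes, diet as a factor, all 26 arrays, 2-sided), and p-values were adjusted by Benjamini-Hochberg over 8485 genes. A call required an adjusted p under 0.17, which the series' design gives beside 0.31; the authors' analysis of variance and removal of values over 2 SD were tried as alternatives. The scripts were tested on simulated data. Figures used Python 3.11.15 with matplotlib 3.10.9.

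Correlations were computed after removing the diet means. Promoter sequences came from RefSeq (GRCr8), matched by symbol. Members, roles and lists were chosen with earlier results of these data known. All 34 members are named with their high minus low difference. Ranges are given for members at an unadjusted p under 0.05 in any test, the 2 members of smallest high minus low p in each role and the member of smallest p in each other contrast; from each list of other pathway genes, the 2 of smallest high minus low p are named. Alternatives changed the intensity limit, the probe set, the scaling, the fit, the covariates and the arrays used.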

Additional observations from a re-analysis of the deposited data

Results flagged for a closer look

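In 9 of the 102 sets of values that a member has in a diet, and in 1 of 15 group means by diet, the highest or lowest rat lay further from the rest than the 95% limit of Dixon's outlier test; chance alone marks about 0.05 of such sets. Control rat 17 gave the highest control value of Syn3 (9.34, the next 9.143), of Stx1a (10.35, the next 9.942) and of Doc2a (9.198, the next 8.585), the lowest of Erc1 (9.652, the next 9.758) and the highest mean of the fusion genes (0.1003, the next 0.02782). High rat 19 gave the highest high-diet value of Doc2a (8.858, the next 8.635). The other values were single: Sv2a in low rat 8 (11.66, the next 11.59), Rims1 in high rat 22 as the lowest (11.17, the next 11.23), Dnm1 in low rat 7 as the lowest (12.37, the next 12.45), and Synj1 in control rat 12 (12.26, the next 12.2). The cause of these values was not tested.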

How the results depend on the processing

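No member passed an adjusted p of 0.17 under any alternative. The smallest member value was 0.327 in high minus low, with values over 2 SD removed. In that fit 30 of all 8485 genes passed in high minus low, 15 in high minus control, 0 in low minus control and 17 in the F-test. In each of the other fits 0 to 3 genes passed. No paired analysis between diets was possible because each rat ate 1 diet and cage mates ate the same diet. The cage as a random block (correlation 0.136) was run instead. Counts of members at an unadjusted p under 0.05 moved as follows. In high minus low (2 members) the count was 1 with quantile normalization and with the cage block, 4 with arrays centred on their medians, 5 with values over 2 SD removed, with only the 2 diets fitted and without moderation, and 6 with array quality weights. The shares of all genes in these fits were 7.59%, 5.27%, 8.08%, 10.4%, 6.91%, 7.17% and 9.51% in that order. The count was 3 (8.82% of members) with an intensity trend, against 7.18% of all genes. It was also 3 with the tail mark (rats labelled marked or unmarked) as a covariate, against 7.58% of all genes. In high minus control (1 member) it was 4 with centring and 2 with values over 2 SD removed and without moderation. These were 11.8%, 5.88% and 5.88% of members, against 6.07%, 7.84% and 4.71% of all genes. In low minus control (1 member) the count was 0 with the stricter intensity limit, the cage block, only the 2 diets fitted and without moderation. The shares of all genes there were 1.52%, 1.51%, 1.91% and 2.37%. In the F-test (0 members) the count was 1 with the stricter limit, array weights, an intensity trend, the tail mark as a covariate and both rats 17 and 19 left out (chosen after seeing the data), 2 with centring and without moderation, and 4 with values over 2 SD removed. The fits with 1 member held 4.35%, 6.58%, 4.5%, 4.73% and 4.31% of all genes in that order. Those with 2 members (5.88%) held 5.3% and 4.43%, and the fit with 4 members (11.8%) held 8.5%. With each rat left out in turn, the counts ranged from 0 (without low rat 4, high rat 24 or high rat 26) to 5 (without high rat 18; 4 without low rat 8, control rat 17 or high rat 22), 1 to 2, 0 to 1 and 0 to 2 (without control rat 12). The shares of all genes in the 3 comparisons of diets then ran from 5.99% to 9.12%, 3.68% to 5.96% and 1.9% to 2.93%. In the F-test the share of all genes ran from 3.82% to 5.43%. The 1 member in low minus control was lost without low rat 1, 3, 5 or 8 or control rat 9, 16 or 17. The members' median difference then ranged from 0.0185 to 0.0321 in high minus low, from 0.00645 to 0.0236 in high minus control and from -0.0152 to -0.00168 in low minus control. Centring turned the median difference of the active zone genes, high minus control, from -0.00806 to 0.00468, the median difference of the fusion genes, high minus control, from -0.00248 to 0.0103, and the median difference of the endocytosis genes, low minus control, from -0.00456 to 0.0012. The cause of these changes was not tested. Small differences are limited by the 8 or 9 arrays of a diet.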
